A study of Mus musculus with 4 samples.

Results

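The 57 genes described here act in the DNA damage response and in DNA repair. They were chosen by symbol, from a list of checkpoint, recombination, end-joining, excision, mismatch and crosslink repair genes. No rule on their values was used, but earlier results of these data were known when the list was made. All 57 were among the 16861 genes listed in each library, and none was at 0 in any library. Of these, 56 had a mean FPKM (read pairs counted on a gene, scaled by its exonic length and by the total of the library, so a level per length) of at least 0.5 over the 4 libraries and were tested, and Ercc2 did not.

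The libraries came from fully grown oocytes at the germinal vesicle (GV) stage, taken from antral follicles of C57BL/6J female mice that were 3 weeks old and carried no engineered allele or treatment named in the sources. In the NSN (non-surrounded nucleolus) group the chromatin was spread through the nucleus. In the SN (surrounded nucleolus) group it was condensed in a ring around the nucleolus and transcription was largely off. Oocytes were sorted one by one after live Hoechst staining of DNA, so the groups differ by chromatin configuration and not by a treatment, and each library pooled 15 oocytes. There were 2 NSN and 2 SN libraries, made by Smart-seq2 from polyadenylated RNA. The labels do not say whether the libraries of a group came from separate mice, so the p-values measure the spread between these samples, which may be technical.

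As background, an oocyte rests for a long time in meiotic prophase with unresolved risks to its genome, and most of what it will use before the embryo transcribes its own genes is laid down as stored mRNA and protein. Breaks are sensed by the MRN complex and by ATM, and exposed single-stranded DNA by RPA and ATR with its partner ATRIP. The kinases CHEK1 and CHEK2 pass the signal on, and in mouse oocytes CHEK2 acts on the p53 family protein TAp63 to remove damaged cells. Breaks are then repaired by homologous recombination, which copies an intact template, or by end joining, while damaged bases, mismatches, bulky adducts and crosslinks each have a pathway of their own.

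Library totals recovered from the FPKM ran from 17069772 to 17998361 read pairs. For a gene 1 kb long, 3 read pairs amount to 0.167 to 0.176 FPKM at this depth, a limit that covers counting error only. All 12 oocyte markers checked were listed, with a summed level of 21400 to 22900 FPKM in NSN and 14600 to 15400 FPKM in SN. Of 17 granulosa and cumulus cell markers 10 were listed, with a summed level of 9.51 to 13.2 FPKM in NSN and 13.4 to 14 FPKM in SN, and Amh, Amhr2, Foxl2, Wt1, Ptx3, Tnfaip6 and Pgr were not among the listed genes. Of 8 markers of theca, stroma, endothelium and leukocytes 3 were listed, with sums of 5.10 to 5.61 FPKM in NSN and 5.18 to 5.56 FPKM in SN.  The part of other cells in the results below was not tested.

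In SN oocytes 5 genes rose and none fell past the thresholds by limma. They were Brca1 and Brca2, which carry homologous recombination, Blm and Wrn, the RecQ helicases of the list, and Fancm, the DNA translocase that brings the Fanconi anaemia pathway to stalled forks. Their FPKM was 1.48 to 1.73 times higher in SN. A call needed a Benjamini-Hochberg adjusted p under 0.05 by limma, over the 11672 genes that passed the same limit on mean FPKM, and a fold change of at least 1.2. With 5 of 56 tested, 8.93% of the list was called, against 7.93% of all genes tested. In the upward direction the background was 5.95% of all genes tested, and in the downward direction, where no repair gene was called by limma, it was 1.98%. The share of the list called was thus near that of all genes.

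The direction of the list was also that of the transcriptome. The log2 fold change (SN minus NSN, of FPKM + 0.5) was above 0 for 37 of the 56 genes, or 66.1%, against 66.7% of all genes tested. The median was 0.16 for the list and 0.14 for all genes tested. Both SN libraries were above both NSN libraries for 30 genes (53.6%), where the background was 44.8%, and both were below for 9 genes (16.1%), where it was 17.8%. At an unadjusted p under 0.05 by limma there were 23 genes, 18 higher and 5 lower in SN, and this limit was passed by 31.7% of all genes tested. Because the median gene stood 0.14 higher in SN on this scale, the changes of Brca1, Brca2 and Fancm are also given below relative to that shift. Changes of the other genes include the shift unless a scaling or correction is named. FPKM is a share of a library, and no added RNA of known amount is named in the sources, so a change in a gene's RNA per oocyte and a change in the rest of the RNA cannot be told apart, nor can fewer cells of a type and less RNA per cell.

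**Figure D1:**
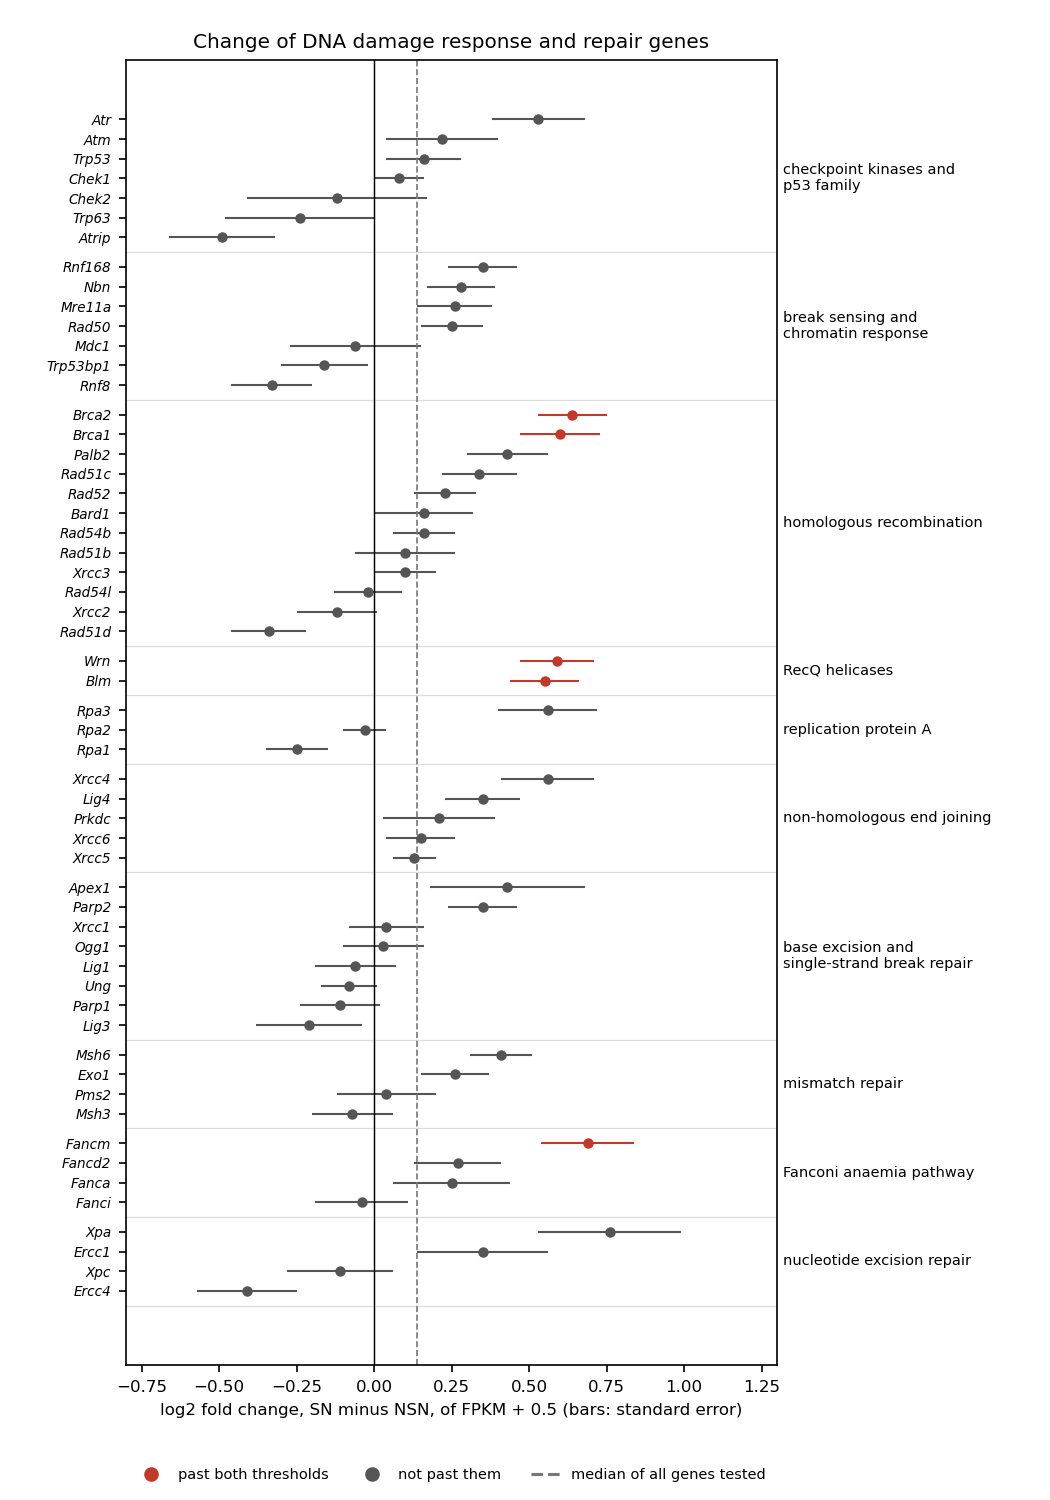
Log2 fold change (x axis, SN minus NSN, of FPKM + 0.5) of the 56 tested DNA damage response and repair genes (y axis), grouped by role, with bars for the standard error from limma. The dashed line is the median of all genes tested at 0.14, and the 5 red points, from 0.55 for Blm to 0.69 for Fancm, are the genes past both thresholds.

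Levels covered more than 3 orders of magnitude. Mean FPKM ran from 0.104 for Ercc2 to 146 for Chek1, with 3 genes above 100, 23 from 10 to 100, 22 from 1 to 10 and 9 under 1. The median was 7.96 FPKM for the 57 genes and 4.45 FPKM for all genes tested. Only 6 genes, Atrip, Chek2, Mdc1, Apex1, Fanca and Ercc2, had under 100 read pairs in every library, so counting error weighs most on them. Overlap with other genes makes values uncertain: at least 20% of the exonic bases lay in another gene for 8 genes, Rad54l, Rad54b, Xrcc3, Lig3, Ogg1, Apex1, Fanca and Ercc2. The 3 most abundant transcripts were those of Chek1, Rpa2 and Xrcc5, one each from signalling, single-strand binding and end joining.

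**Figure D2:**
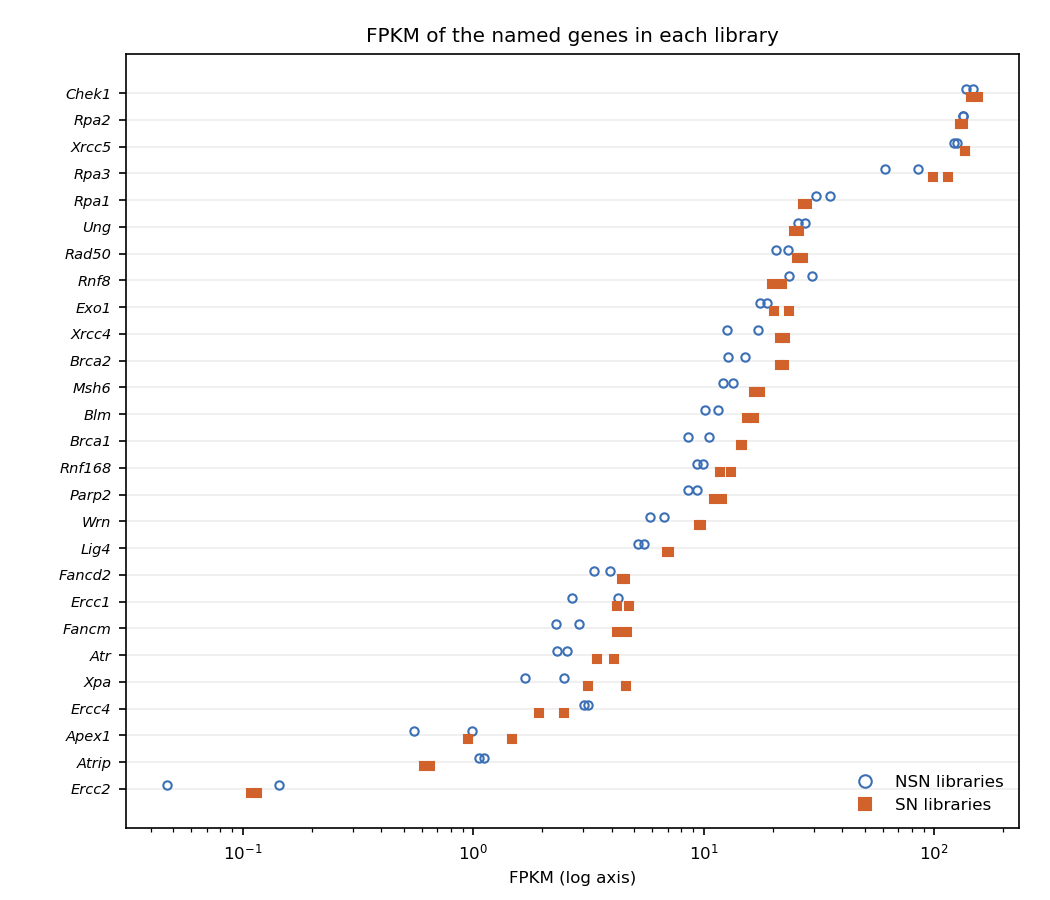
FPKM (x axis, log axis) of 27 DNA damage response and repair genes (y axis) in each of the 2 NSN (open circles) and 2 SN (filled squares) libraries, with no average drawn. Chek1 at 137 to 155 FPKM and Rpa2 at 129 to 134 FPKM lie at the top with overlapping groups, while for Brca1, Brca2, Blm, Wrn and Fancm the SN squares lie to the right of the NSN circles.

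Of the 5 called genes 2 belong to homologous recombination. Brca2, which loads the recombinase onto single-stranded DNA, is at chr5:150446057-150496080 on the plus strand (GRCm39). It measured 12.8 and 15.1 FPKM in the NSN libraries and 22.3 and 21.4 FPKM in the SN libraries, from 2392 to 4139 read pairs a library. Both SN libraries were well above both NSN libraries, with means of 13.9 ± 1.61 in NSN and 21.9 ± 0.620 in SN (SD, n = 2 each). The log2 fold change was 0.64 (standard error 0.11), or 0.50 above the median gene, with an adjusted p of 0.038 by limma.

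Brca1, a ubiquitin ligase that steers breaks towards recombination, lies at chr11:101379577-101442781 on the minus strand. Its levels were 8.59 and 10.6 FPKM in NSN and 14.7 and 14.6 FPKM in SN. The SN libraries were almost equal and the groups did not overlap (9.58 ± 1.40 against 14.7 ± 0.0889, SD, n = 2 each). For Brca1 the log2 fold change was 0.60 (standard error 0.13), 0.46 above the median gene, with an adjusted p of 0.045 by limma.

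Blm and Wrn encode helicases of the RecQ family, which unwind recombination intermediates and structured DNA, and lie at chr7:80104481-80184899 and chr8:33724401-33876642, both on the minus strand. Blm was at 10.1 and 11.6 FPKM in NSN and at 15.5 and 16.6 FPKM in SN. Wrn was at 5.83 and 6.71 FPKM in NSN and at 9.70 and 9.60 FPKM in SN. For each helicase every SN library was above every NSN library, an order that 44.8% of all genes tested showed. Both were called, against 7.93% of all genes tested, with only 2 genes in this role. The log2 fold changes were close, 0.55 (standard error 0.11) for Blm and 0.59 (standard error 0.12) for Wrn, with an adjusted p of 0.044 by limma for each.

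Fancm was the least abundant of the 5, at chr12:65122377-65178832 on the plus strand, with 310 to 652 read pairs a library. It measured 2.29 and 2.87 FPKM in NSN and 4.23 and 4.66 FPKM in SN, again without overlap. Its log2 fold change of 0.69 (standard error 0.15), 0.55 above the median gene, was the largest of the called genes, with an adjusted p of 0.047 by limma. Counting ignored strand, and 15.3% of the exonic bases of Brca2 lie in N4bp2l1 on the opposite strand, so reads of that stretch cannot be assigned to one gene. For the other called genes the share of exonic bases in another gene was at most 7.1%.

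These calls were close to the threshold and depended on how the libraries were scaled. When each library was divided by its median ratio to the mean of all libraries, the median of all genes moved from 0.14 to 0.01. Of all genes tested 2.2% were then called and of the 56 repair genes none was. An unadjusted p under 0.05 by limma was found for 15 of the 56, and for 3165 of 11672 genes. The 5 genes then had log2 fold changes of 0.40 to 0.56 and adjusted p of 0.058 to 0.075 by limma. With read pairs recovered from the FPKM and tested by voom in limma, which weights genes by their depth, 14 of 56 genes were called, 13 higher and 1 lower, against 19.7% of all genes. After median scaling of those read pairs 10 were called, against 14.6% of all genes. Of these 10, 6 were higher (the 5 above and Atr) where 6.39% of all genes were called higher, and 4 were lower (Rnf8, Rad51d, Rpa1 and Ercc4) where 8.21% were called lower. The 5 genes kept a positive log2 fold change under every alternative in which they were tested, and Fancm was not tested where the limit on mean FPKM was 5.

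The calls also depended on which library was left out, as did those over all genes. Over all genes fewer were called than with all 4 libraries, except in the fit without NSN replicate 2. A loss of calls was thus not limited to the list. Without NSN replicate 2 all 5 were called, among 11 of the 56 genes, with adjusted p of 0.013 to 0.024 by limma, and 14.4% of all genes were called. Without NSN replicate 1, SN replicate 1 or SN replicate 2 none of the 56 was called, and the adjusted p of the 5 genes ran from 0.0913 to 0.16 by limma, while their log2 fold changes over all 4 omissions stayed between 0.45 and 0.82. At an unadjusted p under 0.05 by limma there were 10, 14 and 14 genes of the 56 in these 3 fits, where 19.5%, 24.1% and 23.0% of all genes passed that limit. In each such fit a lone library of a group was taken to vary like the other group.

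**Figure D3:**
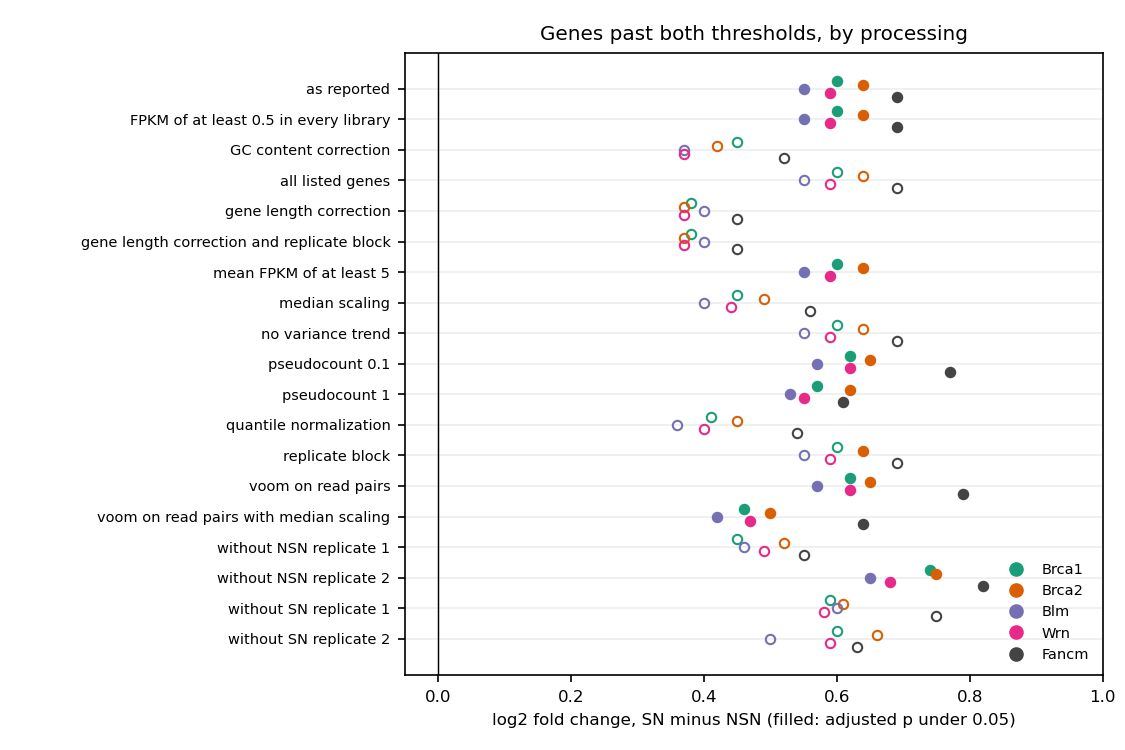
Log2 fold change (x axis, SN minus NSN) of Brca1, Brca2, Blm, Wrn and Fancm under the reported processing and its alternatives (y axis), with filled points for an adjusted p under 0.05 by limma. Every point lies to the right of 0, and the points are open under median scaling, where the values run from 0.40 to 0.56.

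The promoters of 4 of the called genes were in the RefSeq promoter table (GRCm38.p6, a build other than that of the gene positions above). These promoters are shown because their genes were called, and shared regulation was not tested. Each runs from 250 bases before to 50 bases after the start of the gene, 5′ to 3′ on the strand of the gene. Capitals mark matches on either strand to an E2F-type motif (TTTCCCGC or TTTGGCGC), a GC box (GGGCGG) or a CCAAT box (CCAAT), whose letters may share bases where they meet. Brca1 is from chr11:101551906-101552205 on the minus strand, Brca2 from chr5:150522371-150522670 on the plus strand, Blm from chr7:80534949-80535248 on the minus strand and Fancm from chr12:65075353-65075652 on the plus strand. Wrn was not in the table.
Brca1: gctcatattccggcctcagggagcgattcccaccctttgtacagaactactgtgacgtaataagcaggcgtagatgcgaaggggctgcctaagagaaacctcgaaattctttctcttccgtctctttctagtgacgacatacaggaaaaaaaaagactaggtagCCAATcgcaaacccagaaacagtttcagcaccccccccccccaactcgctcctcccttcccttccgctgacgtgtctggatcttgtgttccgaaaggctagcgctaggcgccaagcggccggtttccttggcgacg
Brca2: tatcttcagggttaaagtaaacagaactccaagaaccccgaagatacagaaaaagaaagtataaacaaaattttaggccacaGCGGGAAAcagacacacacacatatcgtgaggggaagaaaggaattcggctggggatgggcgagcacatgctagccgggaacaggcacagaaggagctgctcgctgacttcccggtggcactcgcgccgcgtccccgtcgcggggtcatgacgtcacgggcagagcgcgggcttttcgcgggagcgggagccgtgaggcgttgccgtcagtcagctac
Blm: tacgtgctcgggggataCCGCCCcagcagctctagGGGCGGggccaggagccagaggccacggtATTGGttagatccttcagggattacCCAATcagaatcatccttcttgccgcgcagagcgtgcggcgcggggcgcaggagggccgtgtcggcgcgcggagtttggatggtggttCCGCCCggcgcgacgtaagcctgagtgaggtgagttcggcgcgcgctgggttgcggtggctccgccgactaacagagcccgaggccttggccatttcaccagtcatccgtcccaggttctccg
Fancm: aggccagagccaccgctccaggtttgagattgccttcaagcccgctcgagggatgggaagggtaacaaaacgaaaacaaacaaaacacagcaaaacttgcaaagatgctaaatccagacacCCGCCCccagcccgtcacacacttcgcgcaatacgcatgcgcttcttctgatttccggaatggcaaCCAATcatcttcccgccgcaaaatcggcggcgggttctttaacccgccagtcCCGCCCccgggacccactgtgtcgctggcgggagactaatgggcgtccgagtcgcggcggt

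The 4 sequences share no single one of the 3 motifs. Brca2 has 1 E2F-type match and no GC or CCAAT box, Brca1 has 1 CCAAT box, Fancm has 2 GC boxes and 1 CCAAT box, and Blm has 3 GC boxes and 2 CCAAT boxes. Promoters were found for 46 of the 57 genes. An E2F-type match stood in 7 of the 46 (15.2%), those of Bard1, Brca2, Chek2, Mdc1, Msh3, Msh6 and Xrcc6, against 1.63% of all 27025 promoters of the table and 3.18% of the 8277 promoters of tested genes. GC boxes stood in 33 (71.7%), against 35.9% and 60.5%, and CCAAT boxes in 28 (60.9%), against 37.9% and 40.1%. Of the 7 genes with an E2F-type match only Brca2 was called by limma. A match of letters is a description of the sequence and not a binding site.

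None of the other 10 recombination genes was called by limma, and their groups overlapped only for Rad51b. Palb2, which joins BRCA1 to BRCA2, measured 9.53 and 8.98 FPKM in NSN and 11.5 and 13.9 FPKM in SN, with a log2 fold change of 0.43 (standard error 0.13) and an adjusted p of 0.076 by limma. The groups did not overlap, but the difference did not pass the test. Bard1, the partner of BRCA1, was far lower, at 1.17 to 1.49 FPKM over the 4 libraries. Rad51d, one of the recombinase paralogs that form the BCDX2 complex, went the other way, from 10.3 and 9 FPKM to 7.32 and 7.65 FPKM. Its log2 fold change was −0.34 (standard error 0.12), with an adjusted p of 0.11 by limma, and it was among the 4 genes called lower by voom after median scaling. Rad51c, a second paralog, had a log2 fold change of 0.34 (adjusted p 0.12 by limma), and Rad54l, a motor protein of strand invasion, was nearly level at 6.39 FPKM in both NSN and 6.29 FPKM in both SN libraries. Rad52, Rad54b, Xrcc3 and Bard1 each had both SN libraries above both NSN libraries by small margins, with log2 fold changes of 0.10 to 0.23. Xrcc2, a further subunit of BCDX2, lay below in SN within 4.04 to 4.82 FPKM, and Rad51b overlapped between the groups at 3.29 to 4.26 FPKM. Of the 12 recombination genes, 2 were called by limma, against 7.93% of all genes tested. For 8 of the 12 SN was above NSN and for 3 it was below, against 44.8% and 17.8% of all genes tested. Whether recombination genes differed from other genes in this was not tested.

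Checkpoint genes showed no call among 7 by limma, with 2 at an unadjusted p under 0.05, a limit passed by 31.7% of all genes tested. Atr, the kinase of the replication stress response, measured 2.32 and 2.56 FPKM in NSN and 4.08 and 3.44 FPKM in SN. Atrip, which recruits that kinase to RPA-coated DNA, measured 1.12 and 1.06 FPKM in NSN and 0.615 and 0.648 FPKM in SN. Both pairs were free of overlap and pointed in opposite directions, with log2 fold changes of 0.53 (standard error 0.15, adjusted p 0.072 by limma) and −0.49 (standard error 0.17, adjusted p 0.11 by limma). Atrip rested on 27 to 50 read pairs a library.

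Chek1, the effector kinase below ATR, was the most abundant transcript of the list, at 137 and 147 FPKM in NSN and 155 and 144 FPKM in SN. The groups overlapped, and the log2 fold change of 0.08 (adjusted p 0.56 by limma) turned to −0.08 under median scaling. Chek2, which answers to ATM, measured 0.606 and 0.883 FPKM in NSN and 1 and 0.366 FPKM in SN, so the SN libraries enclosed the NSN ones. Atm itself was at 0.435 to 0.639 FPKM. Trp63, the p53 family gene that guards the oocyte, measured 1.49 and 1.39 FPKM in NSN and 1.56 and 0.808 FPKM in SN, and Trp53 11.4 to 14.3 FPKM over the libraries. Neither was called, with adjusted p of 0.52 and 0.37 by limma.

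Among the 7 genes of break sensing and the chromatin response none was called by limma. An unadjusted p under 0.05 by limma was found for 4 of them, and for 31.7% of all genes tested. Rad50, the coiled-coil ATPase of the MRN complex, measured 20.7 and 23.3 FPKM in NSN and 27.0 and 25.4 FPKM in SN. Rnf8 and Rnf168 encode ubiquitin ligases that act one after the other on chromatin next to breaks. Rnf8 measured 29.4 and 23.5 FPKM in NSN and 19.8 and 21.9 FPKM in SN. Rnf168 measured 9.39 and 9.94 FPKM in NSN and 11.8 and 13.2 FPKM in SN. The groups of each ligase gene were separate and the signs opposite, with log2 fold changes of −0.33 (standard error 0.13, adjusted p 0.14 by limma) and 0.35 (standard error 0.11, adjusted p 0.091 by limma). Nbn and Mre11a, the other subunits of MRN, were above in both SN libraries like Rad50, with log2 fold changes of 0.28 and 0.26 beside 0.25 (adjusted p 0.14, 0.2 and 0.15 by limma). Trp53bp1, whose product favours end joining, overlapped at 12.6 to 16.6 FPKM, as did Mdc1, an adaptor at breaks, at 0.47 to 0.738 FPKM.

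Replication protein A is a trimer that coats single-stranded DNA. Rpa1, the large subunit, measured 35.5 and 30.6 FPKM in NSN and 27.1 and 28.0 FPKM in SN. Rpa2, the middle subunit, was flat at 134 FPKM in both NSN libraries and 129 and 134 FPKM in SN. Rpa3, the small subunit, measured 61.0 and 85.1 FPKM in NSN and 115 and 99.0 FPKM in SN. Rpa3 was above in both SN libraries and Rpa1 below, but none of the 3 was called. An unadjusted p under 0.05 by limma was found for 2 of them, and for 31.7% of all genes tested. The adjusted p was 0.15 for Rpa1, 0.83 for Rpa2 and 0.075 for Rpa3 by limma.

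All 5 genes of non-homologous end joining had both SN libraries above both NSN libraries, an order that 44.8% of all genes tested showed. None was called by limma, with 2 at an unadjusted p under 0.05, a limit passed by 31.7% of all genes tested. Xrcc4, the scaffold of ligase IV, measured 12.7 and 17.3 FPKM in NSN and 22.6 and 21.5 FPKM in SN. Its log2 fold change was 0.56 (standard error 0.15, adjusted p 0.067 by limma). Lig4, the ligase itself, measured 5.20 and 5.54 FPKM in NSN and 7.05 and 6.95 FPKM in SN. Xrcc5, the large Ku subunit, was abundant and little changed, with 122 and 126 FPKM in NSN and 136 FPKM in both SN libraries, and its log2 fold change of 0.13 (adjusted p 0.26 by limma) became −0.02 under median scaling. Xrcc6, the small Ku subunit, was at 20.6 to 25.5 FPKM with the nearest NSN and SN libraries equal to 3 digits, and Prkdc, the kinase recruited by Ku, was at 0.481 to 0.707 FPKM.

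Base excision and single-strand break repair was the group with least separation, though with 8 genes this ranking was not tested. Of its 8 genes 1, Parp2, had SN above NSN and 2 had SN below NSN. Over all genes tested these orders were found for 44.8% and 17.8%. Of the 8 none was called by limma, and 1 had an unadjusted p under 0.05 by limma, against 31.7% of all genes tested. Ung, the uracil glycosylase, was the most abundant at 27.6 and 25.7 FPKM in NSN and 25.9 and 24.6 FPKM in SN. Parp2, a break-activated polymerase of ADP-ribose, measured 8.52 and 9.40 FPKM in NSN and 12 and 11.1 FPKM in SN (log2 fold change 0.35, adjusted p 0.095 by limma). Apex1, the abasic site endonuclease, was at 0.556 and 0.991 FPKM in NSN and 0.946 and 1.48 FPKM in SN, from 12 to 33 read pairs. In addition, 65.3% of its exonic bases lie in Pip4p1 on the opposite strand, so its value is uncertain. Lig3, a ligase for nicks, and Parp1, the main polymerase of ADP-ribose, were below in both SN libraries with log2 fold changes of −0.21 and −0.11 (adjusted p 0.42 and 0.61 by limma). The scaffold gene Xrcc1 at 19.3 to 23.7 FPKM, the replicative ligase gene Lig1 at 4.31 to 5.08 FPKM and the 8-oxoguanine glycosylase gene Ogg1 at 3.37 to 3.66 FPKM overlapped between the groups.

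In mismatch repair Msh6, whose product binds mismatched bases, measured 12.1 and 13.4 FPKM in NSN and 17.6 and 16.6 FPKM in SN. The log2 fold change was 0.41 (standard error 0.10, adjusted p 0.061 by limma). Exo1, the exonuclease that removes the mismatched strand, was at 17.6 and 18.8 FPKM in NSN and 23.4 and 20.3 FPKM in SN. Pms2, at 1.51 to 1.72 FPKM, and Msh3 overlapped between the groups, with adjusted p of 0.87 and 0.74 by limma. None of the 4 genes was called by limma, and 1 had an unadjusted p under 0.05, against 31.7% of all genes tested. Of the 4 Fanconi anaemia genes Fancm alone was called by limma, against 7.93% of all genes tested. For 3 of the 4 both SN libraries were above both NSN libraries, against 44.8% of all genes tested. Fancd2, which is monoubiquitinated when the pathway is on, measured 3.35 and 3.92 FPKM in NSN and 4.41 and 4.57 FPKM in SN, with an adjusted p of 0.22 by limma. Its partner Fanci overlapped at 3.17 to 3.79 FPKM, and Fanca, of the core ligase complex, lay above in SN within 0.475 to 0.789 FPKM (adjusted p 0.4 by limma).

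Nucleotide excision repair held the largest positive log2 fold change of the 56 and one of the largest negative ones, neither called by limma on FPKM. Xpa, which verifies the lesion, measured 1.68 and 2.49 FPKM in NSN and 4.61 and 3.14 FPKM in SN, from 42 to 113 read pairs. Its log2 fold change of 0.76 had a standard error of 0.23 and an adjusted p of 0.083 by limma. Ercc4, the nuclease that cuts on one side of the lesion, measured 3.14 and 3.03 FPKM in NSN and 2.47 and 1.93 FPKM in SN, and the log2 fold change was −0.41 (standard error 0.16, adjusted p 0.13 by limma). Xpa was called by voom in limma (adjusted p 0.044) and without NSN replicate 2, and Ercc4 by voom after median scaling (adjusted p 0.031). Ercc1, its partner, overlapped between groups at 2.69 and 4.27 FPKM in NSN and 4.74 and 4.21 FPKM in SN. Ercc2, a helicase of the repair and transcription factor TFIIH, was below the level tested, at 0.144 and 0.0468 FPKM in NSN and 0.115 and 0.109 FPKM in SN from 3 to 9 read pairs. Xpc, a lesion sensor, overlapped at 1.48 to 1.96 FPKM. None of the 4 tested genes was called by limma, and 2 had an unadjusted p under 0.05, against 31.7% of all genes tested.

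Ratios of transcripts for partner proteins within a library are unchanged when a library is multiplied by 1 factor, as in median scaling, but not by quantile normalization or by GC or length correction. Of 22 such ratios 7 were higher in both SN libraries than in both NSN libraries, 7 were lower and 8 overlapped. Many of the ratios share genes and are not independent, and the share of separate ratios among other pairs of genes was not computed. For 2 libraries against 2 the smallest exact permutation p is 0.333, so separation of a single ratio carries little weight. The Atr to Atrip ratio of FPKM was 2.08 and 2.40 in NSN and 6.64 and 5.30 in SN. For Rpa2 to Rpa3 it was 2.2 and 1.57 in NSN and 1.12 and 1.35 in SN, and for Ercc4 to Ercc1 1.17 and 0.711 in NSN and 0.522 and 0.458 in SN. Brca1 to Bard1 was 7.36 and 8.12 in NSN and 9.88 and 10.6 in SN. For these 4 of the 14 separate ratios, picked after their values were seen, the numbers are given as examples. The 8 that overlapped included those within the MRN complex and within Ku, Brca2 to Palb2 and Lig4 to Xrcc4, with Mre11a to Rad50 at 0.242 to 0.253 and Xrcc5 to Xrcc6 at 5.33 to 5.92 over the 4 libraries. The ratios are given as a description, and no test was run on them.

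**Figure D4:**
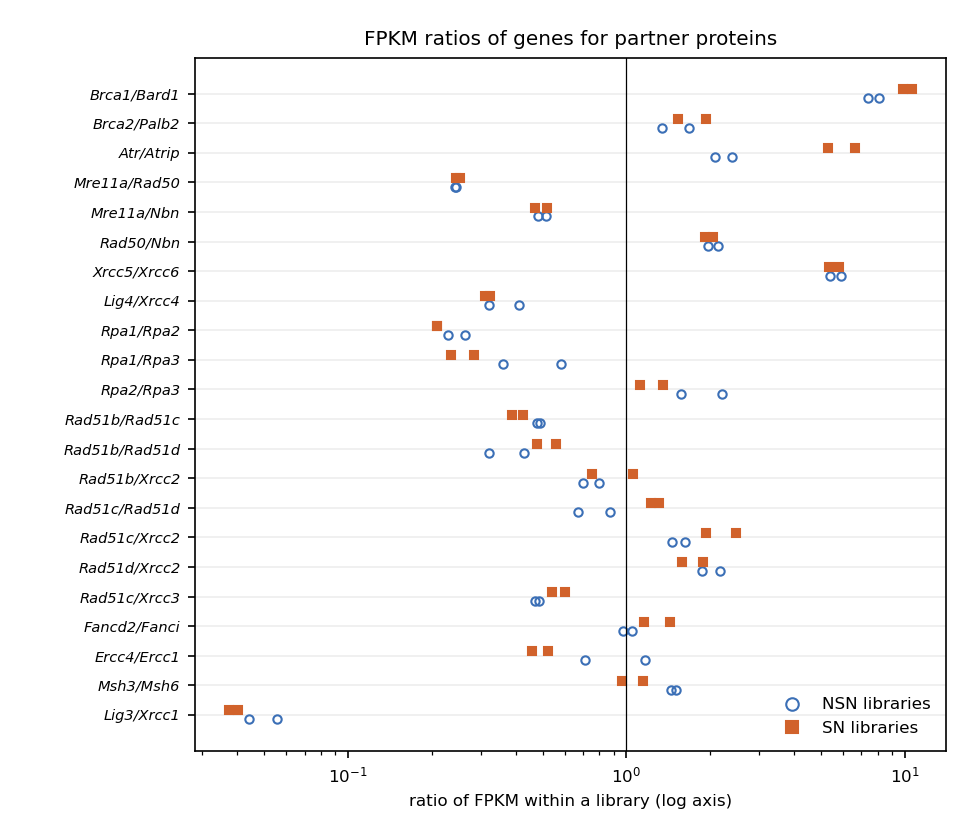
Ratio of FPKM within a library (x axis, log axis) for pairs of genes whose proteins work together or share a family (y axis), in the 2 NSN (open circles) and 2 SN (filled squares) libraries. Atr/Atrip rises from 2.08 and 2.40 in NSN to 6.64 and 5.30 in SN, and the Mre11a/Rad50 points coincide at 0.242 to 0.253.

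Changes differed with the length and base composition of genes. The 56 tested repair genes were longer than all genes tested (median exonic length recovered from the FPKM 4004 against 2645 bp) and had a median GC content of 47.2% against 48.8%. All 5 called genes were among the 24 repair genes in the longest quintile of genes, from 4842 bp, where the median log2 fold change of all genes was 0.23 and 9.31% were called higher. The relation with length was not monotone, since the medians of all genes from the shortest to the longest quintile were 0.18, 0.09, 0.06, 0.11 and 0.23. Over the repair genes the median was 0.35 for the 9 in the second shortest quintile and 0.23 for the 24 in the longest, and Rpa3 alone was in the shortest. In the quintile of genes lowest in GC, to which Brca2 and Wrn belong, the median of all genes was 0.25 and 11.1% were called higher, while in the highest quintile it was 0.04. Brca1, Blm and Fancm were in the next lowest quintile, with a median of 0.18. Corrected for GC content by a smooth curve over all genes, the 5 genes kept log2 fold changes of 0.37 to 0.52 with adjusted p of 0.061 to 0.087 by limma, and corrected for length 0.37 to 0.45 with adjusted p of 0.077 to 0.11 by limma. No repair gene was called by limma in either fit, against 2.08% of all genes with GC correction and 0.0% with length correction, and 15 and 18 had an unadjusted p under 0.05.

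**Figure D5:**
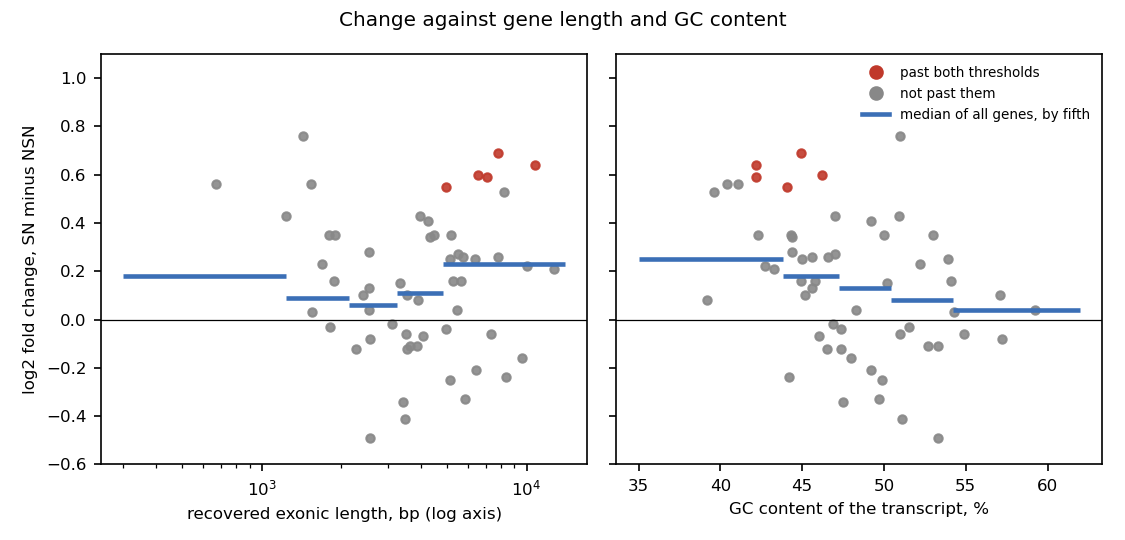
Log2 fold change (y axis, SN minus NSN) of the 56 tested repair genes against recovered exonic length (left, log axis) and GC content of the transcript (right), with the 5 called genes in red and blue lines for the median of all genes in each quintile, the outer quintiles drawn over part of their range. The blue lines fall from 0.25 to 0.04 with rising GC content, and the red points lie above them at 0.55 to 0.69.

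A wider list, also chosen with earlier results of these data known, held 98 other damage response and repair genes. Of the 90 tested 12 rose and 1 fell by limma, 14.4% against the 7.93% of all genes, and their median log2 fold change of 0.12 was below that of all genes at 0.14. With median scaling 1 of the 90 was called, against 2.2% of all genes, and with voom and median scaling 13 were, 9 higher and 4 lower, against 14.6%. Usp1, which removes ubiquitin from FANCD2, measured 13.9 and 14.4 FPKM in NSN and 28.2 and 24.6 FPKM in SN, with a log2 fold change of 0.87 (adjusted p 0.036 by limma). It was the single gene of that list that stayed called under median scaling, with an adjusted p of 0.045 by limma. Hus1, a ring subunit of the 9-1-1 clamp that helps start ATR signalling, measured 17.8 and 21.4 FPKM in NSN and 31.6 and 32.9 FPKM in SN (log2 fold change 0.71, adjusted p 0.036 by limma). Rad9a, another subunit of that clamp, was the gene that fell, from 1.41 and 1.48 FPKM to 0.676 and 0.347 FPKM on 13 to 55 read pairs, with a log2 fold change of −0.96 (adjusted p 0.047 by limma). Rad1, the remaining subunit of the clamp, overlapped between the groups at 4.45 to 5.32 FPKM (log2 fold change −0.06, adjusted p 0.81 by limma). Rev3l, the catalytic subunit of a translesion polymerase, rose from 1.40 and 1.57 FPKM to 3.10 and 2.51 FPKM (log2 fold change 0.73, adjusted p 0.048 by limma). Rad23b, a lesion sensor partner, and Fancl, the ligase for FANCD2, rose with log2 fold changes of 0.58 and 0.57 and adjusted p of 0.046 and 0.045 by limma, and 61.7% of the exonic bases of Fancl lie in Vrk2 on the opposite strand. The calls of the wider list, like those over all genes, were not kept in every fit that left out a library. Over these omissions the log2 fold change ran from 0.78 to 0.97 for Usp1 and from −1.2 to −0.72 for Rad9a.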

How the data were processed

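RNA was measured in 2 NSN and 2 SN libraries of 15 oocytes, grouped by their titles. The labels mention 3 samples a group, and samples beyond these 4 were not analysed here. Per the labels and methods, the authors trimmed reads (Trim Galore 0.6.10), aligned them to GRCm39 by HISAT2, assigned read pairs to GENCODE vM34 exons by featureCounts (unstranded, primary alignments, mapping quality of at least 10) and deposited FPKM from their own script. They ran DESeq2 on counts that were not used here.

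Library totals were recovered from 5 mitochondrial tRNA genes, and exonic lengths and whole read pairs from the deposited FPKM for 16844 genes (99.9%). A factor common to length and counts is not visible, so those of 228 genes, Rad54l and Blm among them, were multiplied by a whole number to reach the coding length. Positions, GC content and exon overlaps came from GENCODE vM39 on the same build.

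SN was compared with NSN by limma 3.58.1 in R 4.3.3 on log2(FPKM + 0.5), two-sided, with a variance trend, for genes whose mean FPKM was 0.5 or more. Only this fit was run on simulated data, which held no general shift and no trend with length or GC content. The alternatives and the recovery of totals and read pairs were not tested on such data. Fold changes on the scale of log2(FPKM + 0.5) understate those of low genes. Alternatives were pseudocounts of 0.1 and 1, other filters, median and quantile scaling, no trend, a replicate block, length and GC correction (loess, span 0.3), voom on read pairs, other thresholds, and leaving out each library.

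The genes and lists were chosen with earlier results of these data known. Genes named were those past both thresholds, in each role the most abundant and the 2 with the largest absolute log2 fold change, those below the filter, and at most 6 called genes of the wider list. The other genes of the 57 were described more briefly, so that each is accounted for, with wording chosen after their values were seen, and Rad1 of the wider list was added after its values were seen.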

Additional observations from a re-analysis of the deposited data

How the results depend on the processing

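The number of repair genes called, 5 as reported, was 0 with GC content correction, length correction, length correction with the replicate block, median scaling, quantile normalization, no variance trend and all listed genes (15, 18, 16, 15, 15, 18 and 23 at an unadjusted p under 0.05 by limma). That limit was passed by 3026 of 11453 genes with GC correction, and by 3165 and 3158 of 11672 with median scaling and quantile normalization. For the other settings the numbers over all genes are given below. The number of repair genes called differed in the settings that follow. It was 8 with a mean FPKM of at least 5, 14 at an adjusted p under 0.1, 14 with voom and 10 with voom and median scaling, and 0 to 11 when one library was left out. With a mean FPKM of at least 5, the 8 were of 32 repair genes tested, against 1496 of 5519 genes. At an adjusted p under 0.1 the 14 were of 56, against 2370 of 11672 genes. With voom 19.7% of all genes were called, and with voom and median scaling 14.6%. The number of repair genes with a log2 fold change above 0, 37 as reported, was 24 of 32 at that same limit of 5 FPKM, 29 of 56 with median scaling, quantile normalization, length correction or voom with median scaling, 30 with GC correction, and 37 to 40 when one library was left out. The calls in the wider list, 13 as reported, were 1 with GC correction, median scaling or quantile normalization. They were 0 with all listed genes, length correction (with and without the replicate block) or no trend, where no gene at all was called. With a pseudocount of 0.1 there were 8, against 773 of 11672 genes, and with voom 20, against 19.7% of all genes. With GC correction 238 of 11453 genes were called, and with median scaling and quantile normalization 257 and 230 of 11672.

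Over all genes 926 were called, of which 75.1% were higher in SN. There were 238 with GC correction (37.4% higher), 257 with median scaling (30.4%), 230 with quantile normalization (32.2%), 1496 with a mean FPKM of at least 5, 2370 at an adjusted p under 0.1, 2296 with voom, 1703 with voom and median scaling (43.7%), 0 to 1685 when one library was left out, and 0 with all listed genes, length correction, length correction with the block or no trend (4092, 3117, 2750 and 3449 at an unadjusted p under 0.05 by limma).

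With the replicate number as a block, 422 genes (63.0% higher), 1 repair gene (Brca2) and 2 of the wider list were called. The numbers did not pair the libraries: the correlation over genes of replicate 1 minus replicate 2 between NSN and SN was -0.07.

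Chek1 changed sign to -0.18 with GC correction, -0.02 with length correction (with and without the block) and -0.08 with median scaling of FPKM or read pairs, and Xrcc5 to -0.03 with GC correction and -0.02 with median scaling of either. Leaving out a library aside, of the other comparisons of 32 named genes with their alternatives 329 kept direction and side of the threshold, 85 lost a call and 15 gained one. Only genes called as reported could lose a call, so all 85 fell on these. The 329 include comparisons of genes that had no call to lose. The cause of these differences was not tested. With 2 libraries a group, small changes were not detectable, and genes with few read pairs were limited by counting error.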
